A study of Mus musculus with 96 samples.

Results

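Expression of 9 genes of the monocyte lineage was followed in single cells of a mouse acute myeloid leukemia: Ly6c2, the lysozyme genes Lyz1 and Lyz2, F13a1, Ms4a6c, Fcgr1, Cd68, Clec12a and Igsf6. The members were taken by name, and all 9 were found among the 23955 genes of the table. The 96 cells came from the spleens of 2 moribund mice, 48 from each, and every cell was its own library. Both animals carried Flt3ITD on both alleles, a Dnmt3a genotype of fl/- and the transgene MxCre, a Cre recombinase under the interferon-responsive Mx1 promoter that acts in blood cells but also elsewhere. Ages were not given in the labels. Splenocytes were enriched on CD117 (c-Kit) magnetic beads, captured on a microfluidic chip in a separate round for each mouse and sequenced in 1 pool. Mouse and capture round cannot be told apart, and the control genotype named in the protocols was not analysed here.

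Monocytes arise in the bone marrow from granulocyte-monocyte progenitors, which make the azurophil granule proteins Mpo, Elane, Prtn3 and Ctsg. As the monocyte branch is taken, cells gain the surface antigen Ly6C, the chemokine receptor Ccr2 and the growth factor receptor Csf1r, and they shut down granule genes. Several genes read as monocyte genes are shared with other myeloid cells: neutrophil precursors carry lysozyme and Ly6C, and dendritic cells carry the endolysosomal protein Cd68 and several lectin receptors. A cell can therefore be assigned to the lineage from several such genes together, whereas 1 of them alone is little evidence. The comparison asked which of the 9 genes were found in the same cells, in which cell states, and whether any cell held them as a set.

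Levels are in TPM, transcript abundances scaled for transcript length and to a fixed total per cell, so the read depth of a cell is unknown. A gene was called detected at 10 TPM or more, and 100 TPM was used as a stricter level. Genes at 1 TPM or more numbered a median of 3606 per cell in mouse 1 (1759 to 5559) and 3083 in mouse 2 (1604 to 6018). Kit, the gene of the selected receptor, reached the detection level in 33 and 22 cells (mouse 1 and mouse 2), and the other cells, although enriched on this marker, were below it. Cells were divided by 3 genes outside the set, each at 1000 TPM or more: H2-Aa, a class II antigen-presenting chain (class II-high, 14 cells of mouse 1 and 19 of mouse 2), Mpo, myeloperoxidase (Mpo-high, 13 and 12), and S100a8, a calcium-binding protein of neutrophils (neutrophil gene-high, 0 and 8). Past the thresholds of 2 of these genes lay 1 and 3 cells, and the rest numbered 20 and 6. The last Mpo value inside its threshold was 1033 TPM and the first outside 999 TPM, so Mpo-high is a range without a gap. For S100a8 the corresponding values were 1251 and 133 TPM, and for H2-Aa 6732 and 115 TPM. Median genes per cell were 2922 and 2636 in class II-high cells (mouse 1 and mouse 2), 4463 and 4041 in Mpo-high cells, 3588 and 4252 in the rest and 2617 in the neutrophil gene-high cells. With 1 animal per side and cells that are not replicates, no comparison between groups was tested, and each is a description of these libraries.

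**Figure D1:**
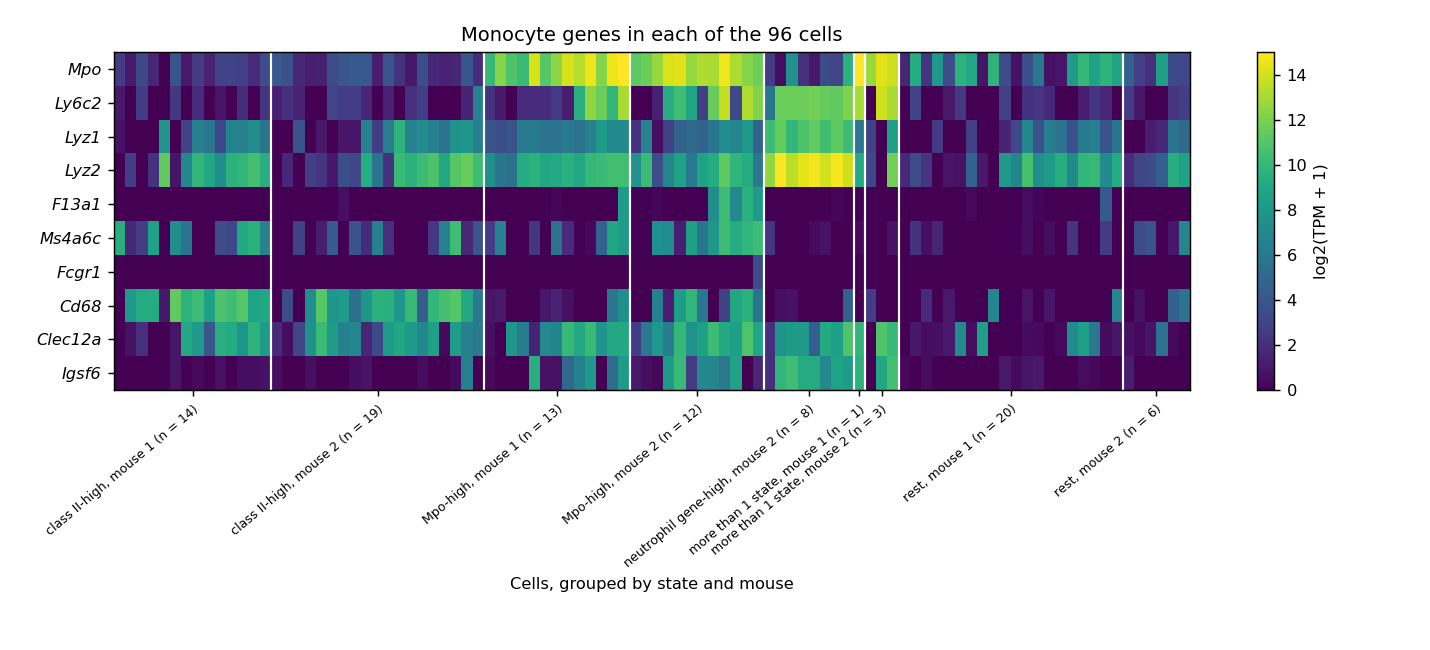
Level of Mpo and of the 9 monocyte genes in each of the 96 cells, as log2(TPM + 1) on the color scale; cells are in columns, ordered by state and mouse and then by the number of monocyte genes detected. Ly6c2 is bright in part of the Mpo-high and in nearly all neutrophil gene-high cells, Cd68 in class II-high cells, and F13a1 in 6 Mpo-high cells.

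Ly6c2 (chromosome 15, 75108158 to 75111970, minus strand, GRCm38, as for all positions of genes here) encodes a GPI-anchored protein of the Ly6C antigen, which marks classical monocytes and, at lower density, neutrophils. It was either high or close to absent. It reached 100 TPM in 22 of the 96 cells, with values from 467 to 15173 TPM and a median of 3150 TPM, and only 2 cells lay between 10 and 100 TPM, cell 51 at 92.6 and cell 73 at 55.5 TPM. Of the 22 cells, 12 were Mpo-high, 7 neutrophil gene-high and 3 in more than 1 state. None of the 33 class II-high cells and none of the 26 remaining cells was among them, which allows shares of up to 9.09% and 11.5%.

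Among the Mpo-high cells of mouse 1, 5 had Ly6c2 at 718, 938, 3176, 5902 and 8338 TPM, and the other 8 ranged from 0 to 4.60 TPM. In mouse 2, 7 Mpo-high cells had 467, 659, 1349, 2906, 4605, 9375 and 12589 TPM, and the other 5 ranged from 0 to 9.48 TPM. The Mpo-high state thus held both kinds of cell in both mice. The level of Mpo went with them at its ends and not between: the 6 Mpo-high cells with the lowest Mpo (1033 to 3190 TPM) all had low Ly6c2, and the 6 with the highest (18513 to 32576 TPM) all had high Ly6c2. In between, cells 23 and 32 had Mpo at 17608 and 17445 TPM with Ly6c2 at 2.66 and 1.32 TPM, whereas cell 89 had Mpo at 3361 TPM with Ly6c2 at 4605 TPM. The 8 neutrophil gene-high cells had Ly6c2 from 55.5 to 4423 TPM with a median of 3002 TPM, and 7 of them lay between 2588 and 4423 TPM.

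Below 10 TPM, 42 of 72 cells still had a Ly6c2 value above 0, up to 9.48 TPM. Every 8th library of the cell numbering was compared, because low values of abundant genes can follow the numbering. The medians of the low values ranged from 0 to 4.05 TPM over the 8 positions. They were 0 TPM at the 1 position with 0 cells at 1000 TPM or more. They were also 0 TPM at 3 positions that held 3, 2 and 1 such cells. At the other positions they were 3.94, 2.455, 4.05 and 3.545 TPM, with 4, 2, 2 and 4 such cells. Whether the low values come from the high cells was not tested. These low values were not read as expression. Ly6c1, a near-identical copy of Ly6c2, was detected in 19 cells, all of them among the 22 with Ly6c2 at 100 TPM. In the 22 cells it took a median of 1.10% of the summed Ly6c2 and Ly6c1 TPM (0 to 3.74%). How the quantification divided reads between these copies was not tested, so Ly6c1 is uncertain.

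Lyz1 (chromosome 10, 117287797 to 117292868, minus strand) and Lyz2 (chromosome 10, 117277331 to 117282321, minus strand) are adjacent copies of the gene of lysozyme, the enzyme that cleaves bacterial cell walls. Lyz2 is the copy of myeloid cells and Lyz1 that of intestinal Paneth cells. Their coding sequences have the same length of 447 bases and differ at 22 of them (95.1% identity), with an identical run of 118 bases. The first 150 coding bases of each (GENCODE M21 annotation of GRCm38) are shown because short reads can be assigned to 1 copy only where the copies differ. Capitals mark the 14 bases that differ within this stretch.

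Lyz1: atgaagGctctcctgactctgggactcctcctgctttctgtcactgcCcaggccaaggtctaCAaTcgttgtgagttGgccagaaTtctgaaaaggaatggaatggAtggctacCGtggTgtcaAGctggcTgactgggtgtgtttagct

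Lyz2: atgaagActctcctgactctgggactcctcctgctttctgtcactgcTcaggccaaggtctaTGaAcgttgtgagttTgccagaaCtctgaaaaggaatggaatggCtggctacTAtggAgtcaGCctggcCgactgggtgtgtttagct

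Stretches without a capital are the same in both genes, so a read from within one of them fits both. In 62 cells with a summed level of 100 TPM or more, Lyz1 took a median of 8.28% of the sum. In 52 of these the share lay between 5 and 15%, and it was alike in all states: the median was 8.88% in class II-high, 8.45% in Mpo-high, 8.09% in neutrophil gene-high cells and 7.62% in the rest. Over the 48 cells of a mouse, the Spearman correlation between the copies was 0.95 in mouse 1 and 0.93 in mouse 2, as a description of values that share reads and library. Lyz1 is therefore uncertain as a gene of its own in most cells, and the 9 members hold at most 8 separate measurements there.

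Cells that depart from this share were few. In 5 cells Lyz1 exceeded 20% of the sum, and the highest was cell 59, a class II-high cell of mouse 2 with 868 TPM of Lyz1 and 1102 TPM of Lyz2 (44.1%). In the other deposited table, of RPKM values, 18 cells had either copy above its lowest value, 8 of them both copies, 8 Lyz2 alone and 2 Lyz1 alone. The latter were cell 59 at 64.9 RPKM and cell 93, also class II-high of mouse 2, at 71.7 RPKM, with 85.9 TPM of Lyz1 against 3.43 TPM of Lyz2 in the main table. Both tables thus placed Lyz1 reads in these 2 cells. Cell 84, a neutrophil gene-high cell, had 1547 RPKM of Lyz1 against 207 RPKM of Lyz2 but 2692 against 27597 TPM, so the tables gave opposite orders there.

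**Figure D2:**
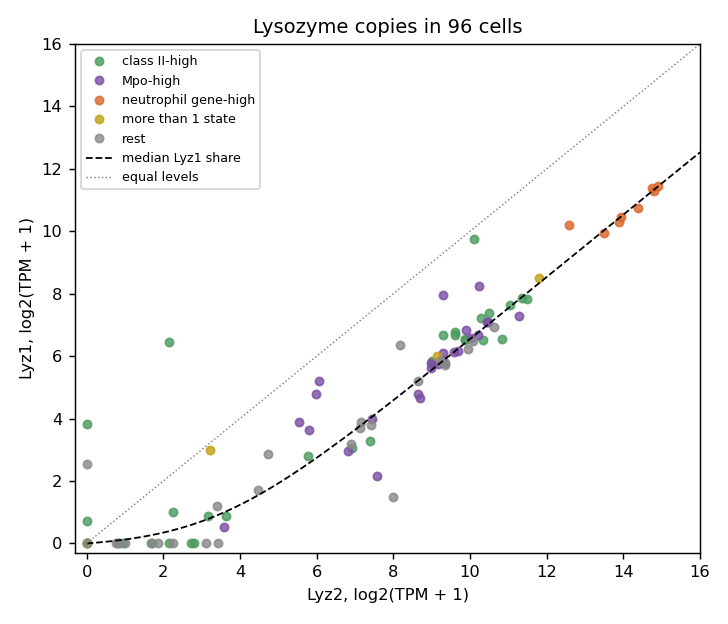
Lyz1 against Lyz2 in the 96 cells, both as log2(TPM + 1), colored by state; the dashed line is the median Lyz1 share of 8.28% and the dotted line equal levels. Most cells with lysozyme lie on the dashed line from low to high levels, and the 8 neutrophil gene-high cells are at its upper end.

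Lysozyme was the most widespread of the monocyte genes and was highest in the neutrophil gene-high cells. Lyz2 was detected in 35 cells of each mouse (72.9%, exact 95% interval 58.2 to 84.7 by Clopper-Pearson, which covers the counting of cells alone). In the 8 neutrophil gene-high cells it ranged from 6107 to 30603 TPM with a median of 18506 TPM, and no other cell exceeded 3589 TPM. Lyz1, which shares reads with Lyz2, was at 989 to 2804 TPM in these cells against at most 868 TPM elsewhere. The share of all genes that divide the 8 cells from the others in this way was not counted. In Mpo-high cells Lyz2 was present in 25 of 25, at 45.6 to 1415 TPM in mouse 1 (median 628) and 11.03 to 2496 TPM in mouse 2 (median 407). In class II-high cells it divided: it was detected in 9 of 14 and in 11 of 19, up to 2622 and 2866 TPM, and it was at most 7.97 TPM in the others. In the rest the median was 129 TPM for mouse 1 and 15.3 TPM for mouse 2.

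F13a1 (chromosome 13, 36867178 to 37050244, minus strand) encodes the A subunit of coagulation factor XIII, a transglutaminase that crosslinks fibrin and is made by monocytes, macrophages and megakaryocytes. It was the most selective member found above 100 TPM. It was detected in 7 cells: cell 26 of mouse 1 at 17.7 TPM, which was in no state, and 6 Mpo-high cells, namely cell 34 of mouse 1 at 298 TPM and cells 58, 63, 67, 87 and 89 of mouse 2 at 165, 1251, 138, 754 and 296 TPM. No other cell exceeded 0.52 TPM, and 82 of the 96 were at 0. F13a1 therefore had no low background of the kind seen for Ly6c2. None of the 33 class II-high and none of the 8 neutrophil gene-high cells had it, which allows up to 9.09% and 37.5%.

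Ms4a6c (chromosome 19, 11469366 to 11482192, plus strand) is a membrane-spanning protein of the Ms4a family, abundant in monocytes. It reached 100 TPM in 19 cells, 10 of them Mpo-high, 8 class II-high and 1 of the rest. In Mpo-high cells it ranged from 0 to 464 TPM in mouse 1 with a median of 4.2 TPM, and from 0 to 1300 TPM in mouse 2 with a median of 206 TPM. The class II-high cells had 0 to 759 TPM (median 33.02) in mouse 1 and 0 to 1279 TPM (median 2.47) in mouse 2. In the 8 neutrophil gene-high cells it was at most 3.78 TPM. It was thus found on the F13a1 side and the class II side, and not with the neutrophil genes.

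Fcgr1 (chromosome 3, 96282909 to 96293969, minus strand) encodes CD64, the high-affinity receptor for IgG and a surface marker of monocytes and macrophages. It was above 0 in 1 of 96 cells, cell 89 of mouse 2, at 10.5 TPM, and at 0 in all 48 of the first mouse (a count that leaves room for 6.25% of its cells). Its signaling partner Fcer1g, the common Fc receptor gamma chain, was detected in 70 cells, and the low-affinity receptor genes Fcgr3 and Fcgr2b in 25 and 36 cells. The low-affinity receptors named here were chosen as the most abundant of a list of 5 Fc receptor genes. CD64 transcripts were thus not detectable in nearly all cells while other Fc receptor genes were measured in many.

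Cd68 (chromosome 11, 69664213 to 69666153, minus strand) encodes a glycoprotein of endosomes and lysosomes, used as a stain for macrophages. It was foremost a gene of the class II-high cells: it was detected in 12 of 14 (mouse 1) and 17 of 19 (mouse 2), with medians of 613 and 245 TPM and highest values of 2555 and 2187 TPM. In Mpo-high cells it was detected in 2 of 13 (0 to 179 TPM) and 7 of 12 (0 to 939 TPM). In the 8 neutrophil gene-high cells the highest value was 24.05 TPM. Cd68 and Ly6c2 at 100 TPM coincided in 4 cells out of 32 with Cd68 (12.5%) and 22 with Ly6c2 (18.2%).

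Clec12a (chromosome 6, 129342691 to 129365303, plus strand) is an inhibitory C-type lectin receptor of granulocytes, monocytes and dendritic cells. It was detected in 58 cells and was shared by all 3 states, with medians of 229 and 366 TPM in Mpo-high cells, 124 and 114 TPM in class II-high cells and 286 TPM in neutrophil gene-high cells. The remaining cells set it apart from lysozyme: 20 cells of mouse 1 had a median of 0.42 TPM and 6 of mouse 2 one of 0.45 TPM.

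Igsf6 (chromosome 7, 121064067 to 121074572, minus strand) is an immunoglobulin-superfamily membrane protein of myeloid cells. It went with Ly6c2: of the 18 cells at 100 TPM, 15 also had Ly6c2 at 100 TPM (83.3% of the former and 68.2% of the 22 latter). Detection was found in 6 of 13 and 6 of 12 Mpo-high cells, in 7 of 8 neutrophil gene-high cells (3.24 to 1332 TPM, median 501) and in 1 of 33 class II-high cells, cell 66 at 93.8 TPM. The Spearman correlation of Igsf6 with Ly6c2 was 0.58 in mouse 1 and 0.66 in mouse 2, against medians of 0.19 and 0.16 over all pairs of members. That of Cd68 with Ly6c2 was -0.12 and -0.27, and that of Ms4a6c with Cd68 0.48 and 0.40. These values are over 48 cells of 1 animal each, which share library batch and differ in depth.

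**Figure D3:**
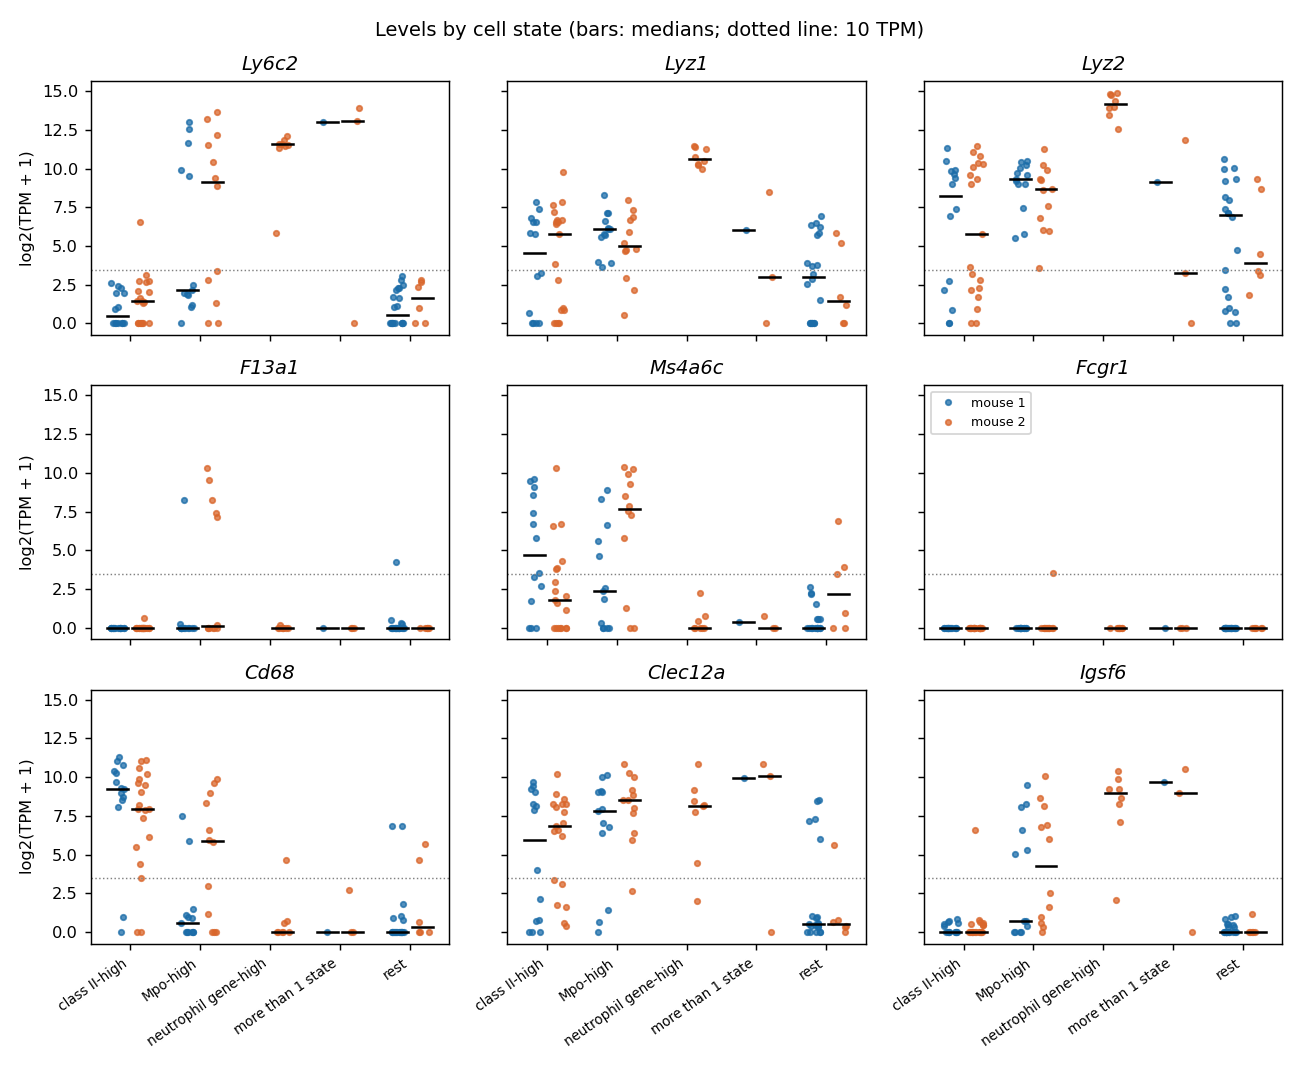
Level of each of the 9 genes, as log2(TPM + 1), by cell state; each point is 1 cell, colors are the mice, short bars are medians and the dotted line is 10 TPM. Ly6c2 falls into high and low cells within the Mpo-high state, F13a1 is high in 6 Mpo-high cells, and both lysozymes are highest in the neutrophil gene-high cells.

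Set against each other, the states held different parts of the list. The counts that follow are of members whose mean log2(TPM + 1) differed by 1 or more, beside the same share over the 11015 genes whose mean reached 1 TPM, of which 8 are members and Fcgr1 is not. In mouse 1, class II-high cells had 2 members higher and 5 lower than Mpo-high cells, where 6.24% of genes were higher and 40.2% lower. In mouse 2, 1 was higher and 6 were lower, where 5.63% of genes were higher and 40.7% lower. The member higher in both mice was Cd68, by 6.96 and 2.42, and Ly6c2 was lower by 4.37 and 5.69 (class II-high minus Mpo-high: -4.37 and -5.69). Ms4a6c went opposite ways, with a difference of 1.68 in mouse 1 and -4.0 in mouse 2. The median over the members was -1.62 and -2.15 and that over all genes -0.67 and -0.69. Class II-high cells also had fewer genes per cell, and the part of this in the lower values was not tested.

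Against the rest, Mpo-high cells had 6 members higher in mouse 1, where 21.8% of genes were higher, and 8 higher in mouse 2, where 21.3% were. None was lower, against 5.68% and 15.5% of genes. The largest of these differences were in Clec12a (4.39 and 6.76) and Ly6c2 (4.28 and 5.76), and the member median was 2.91 and 3.56 against 0.22 and 0.11 for all genes. In mouse 2 alone, F13a1 (3.56) and Cd68 (3.10) were among those higher, whereas in mouse 1 they differed by 0.39 and 0.51. The rest of mouse 2 numbered 6 cells.

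The neutrophil gene-high cells had 4 members higher than the Mpo-high cells of the same mouse, where 6.76% of genes were higher, and 3 lower, where 40.8% were lower. Lyz2 differed by 5.98, Lyz1 by 5.74, Igsf6 by 3.72 and Ly6c2 by 3.69. Ms4a6c differed by -6.07, Cd68 by -4.19 and F13a1 by -3.54. The lysozymes, Ly6c2 and Igsf6 were thus higher in the neutrophil gene-high cells, and Ms4a6c, Cd68 and F13a1 were lower. The neutrophil genes took much of the fixed total in these cells, with S100a8 at 117755 TPM or more in each of the 8, and the part of this in the lower values was not tested.

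Of the 4 cells past 2 state thresholds, 3 had high Ly6c2 together with high Mpo and S100a8. Cell 13 of mouse 1, with Mpo at 34099 and S100a8 at 1251 TPM, had Ly6c2 at 8366, Igsf6 at 816 and Lyz2 at 565 TPM. Cell 79 of mouse 2, with S100a8 at 61669 and Mpo at 15088 TPM, had Ly6c2 at 8659, Igsf6 at 1490 and Lyz2 at 3589 TPM. Cell 86, with S100a8 at 26570 and Mpo at 20561 TPM, had the highest Ly6c2 of all cells, 15173 TPM, and both lysozymes at 0. Cell 68, with H2-Aa at 6732 and Mpo at 6730 TPM, had 0 members detected. F13a1 and Fcgr1 were at 0 in all 4 cells. No doublet caller was run, and doublets among these cells were not tested.

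Between the mice, 5 members were higher by 1 or more in mouse 2, where 1.59% of all genes were, and 0 were lower, where 11.6% were. The 5 were Ly6c2 (mean 573 TPM in mouse 1 and 1638 in mouse 2, difference 2.56), Clec12a (211 and 356 TPM, 1.85), Igsf6 (47.5 and 177 TPM, 1.77), Cd68 (272 and 295 TPM, 1.35) and Lyz1 (51.7 and 371 TPM, 1.18). Cells of 1 mouse spread more widely than this: the standard deviation of Ly6c2 was 3.68 in mouse 1 and 5.07 in mouse 2 on the same scale. Differences of the other members were 0.98 for Lyz2 (499 and 3765 TPM), 0.62 for F13a1 (6.60 and 54.3 TPM), 0.52 for Ms4a6c (77.7 and 142 TPM) and 0.07 for Fcgr1. The member median was 1.18, against -0.20 over all genes.

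These differences depended on the table and on which cells were included. In the RPKM table, taken as log2(RPKM + 1), 1 member, Ly6c2, was higher by 1 or more (1.81), and the difference was 0.67 for Lyz1, 0.14 for Clec12a, 0.12 for Cd68 and 0.08 for Igsf6. Fewer cells are above the lowest value of a gene there, and the share of all genes past a difference of 1 was not counted in that table. Cells with S100a8 at 1000 TPM or more numbered 11: the 8 neutrophil gene-high cells and cells 13 (mouse 1), 79 and 86 (mouse 2). Without these 11 cells, the difference was 1.08 for Ly6c2, 0.12 for Lyz1, -0.21 for Lyz2 and 0.54 for Igsf6. It was 2.33 for Cd68, 1.49 for Clec12a and 1.16 for Ms4a6c. Among Mpo-high cells alone, a restriction chosen after the values were seen, F13a1 differed by 2.91, Ms4a6c by 3.33, Cd68 by 3.52 and Ly6c2 by 1.90, and the lysozymes by -0.87 (Lyz1) and -0.79 (Lyz2). The lysozymes and the other members thus differed between the mice in opposite directions within this state. With 13 and 12 such cells and 1 animal per side, this describes the 2 samples.

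Whether any cell held the monocyte genes as a set was asked with a rule: at least 7 of the 9 members detected, with Ly6c2, F13a1, Ms4a6c and Fcgr1 among them. The median cell had 3 of 9 members, 9 cells had 0, and no cell had 9. At least 7 were detected in 7 cells, all Mpo-high, 2 of mouse 1 (cells 24 and 34) and 5 of mouse 2 (cells 58, 63, 67, 87 and 89), with 8 in cells 34 and 89. Lyz1 and Lyz2 were both among the detected members in each of these 7 cells, although the copies are not separate measurements in most cells. The full rule was met by 1 cell, cell 89 of mouse 2, and there it rested on Fcgr1 at 10.5 TPM, just past the threshold. Fcgr1 was above 0 TPM in no other cell, so a rule that required it could not count more than 1 cell at any threshold. Leaving Fcgr1 aside, cells 34, 58, 63, 87 and 89 had at least 7 members with Ly6c2, F13a1 and Ms4a6c among them. At 100 TPM no cell could meet the full rule, since Fcgr1 did not exceed 10.5 TPM in any. Outside the Mpo-high state the most was 6 members, in 1 class II-high and 1 neutrophil gene-high cell.

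Cell 89 had Ly6c2 at 4605, Ms4a6c at 1300, Clec12a at 459, F13a1 at 296, Lyz2 at 62.5, Cd68 at 56.2 and Lyz1 at 26.3 TPM, with Igsf6 at 2.06 TPM. Its Mpo was 3361 and its Elane 650 TPM, the lowest of the 6 cells with F13a1 at 100 TPM. It also had the highest Ly86 (2795 TPM), an MD-1 coreceptor of myeloid cells and B cells, and the highest Cd14 (600 TPM), the lipopolysaccharide coreceptor, of all 96 cells, and Ccr2 at 1840 TPM. Cd79b, a chain of the B cell receptor, was at 906 TPM in it, with Cd79a and Ms4a1 at 0. Cd79b was not particular to this cell: it was detected in 24 of the 96 cells, 15 of them Mpo-high. Kit was at 0 in cell 89.

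Cell 34 had all members but Fcgr1 at 100 TPM or more: Ly6c2 8338, Lyz2 1415, Clec12a 549, Ms4a6c 314, Igsf6 313, F13a1 298, Cd68 179 and Lyz1 137 TPM. It combined them with Mpo at 32576 and Elane at 15076 TPM. Cell 63 had the highest F13a1, 1251 TPM, with Ly6c2 at 12589, Lyz2 at 2496 and Ms4a6c at 1236 TPM, and Cd68 at 6.75 TPM. Cell 87 had F13a1 at 754, Ly6c2 at 9375, Clec12a at 1834, Ms4a6c at 954 and Cd68 at 776 TPM, and Igsf6 at 0. In cell 58 Cd68 was at 0 TPM. Cell 67 had Ly6c2 at 9.48 TPM, under the detection level, and the most genes of all cells, 6018, with Mcpt8, a basophil protease gene, at 478 TPM. Mcpt8 was detected in 24 of all cells, 16 of them Mpo-high, and was at 153 TPM in cell 89.

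All 6 cells with F13a1 at 100 TPM had Ms4a6c and Clec12a at 100 TPM as well. Among the 25 Mpo-high cells, to which they belong, 10 had Ms4a6c and 18 had Clec12a at that level. Ly6c2 and Lyz2 were so in 5 of the 6, Lyz1 in 4, and Cd68 and Igsf6 in 3. Ms4a6c and Clec12a were thus common to the 6 cells, and the other members varied among them.

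Other genes of the lineage were read in the same cells from lists, and the single genes named from them beyond the most abundant of each list were chosen after their values were seen. Of 28 further monocyte genes, the 6 cells had 6 to 17 at 10 TPM or more. The median was 6 over all cells, 9 over the class II-high cells (5 to 12) and 6 over Mpo-high cells (2 to 17). The numbers in class II-high cells thus overlapped with those in the 6 cells, and 4 genes of the list were below 10 TPM in every cell. Fcer1g was at 919 TPM or more in all 6 and Ccr2 at 113 TPM or more, whereas they were detected in 70 and 37 of all 96 cells. Csf1r, the receptor of the monocyte growth factor, was detected in 13 cells, 12 of them Mpo-high, and in 5 of the 6 (16.4 to 111 TPM). Cd14 was detected in 5 cells, all Mpo-high, 3 of them among the 6, and Klf4, a transcription factor needed for monocyte formation, in 12 cells and 4 of the 6.

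The further monocyte genes divided within these cells. Ctss, the cathepsin S gene, and Ly86 were detected in 6 of the 6 (from 34.3 and 54.3 TPM up), Lgals3, the galectin-3 gene, in 4 and Cybb, a subunit of the phagocyte oxidase, in 3. Others were not detected in the 6 cells: Tgfbi and Ear2 were found in 21 and 14 of all 96 cells and in 0 of the 6, Fn1, Vcan and Cx3cr1 were below 10 TPM in all 96 cells, and Itgam, which encodes CD11b, was at most 0.12 TPM in the 6 cells while detected in 16 of the 96. Chil3, the most abundant gene of the further list and shared with neutrophils, was at most 10.5 TPM in the 6 cells. Of 11 macrophage genes in the table, 0 were detected in the 6 cells, and 7, among them all 3 C1q chains, were at 0 in every cell.

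The same 6 cells held the granule genes of the progenitor. Of 12 genes of the granulocyte-monocyte progenitor list, 7 to 10 were detected in each, with Mpo from 3361 to 32576, Elane from 650 to 15076, Plac8 from 4800 to 10334 and Srgn from 772 to 2711 TPM. Their summed level was 11573 to 72043 TPM, against a median of 7214 TPM over all cells. Mpo is on this list and defines the Mpo-high state of the 6 cells, so a high sum is partly built in. The median over all Mpo-high cells was 9 genes of the list detected, within the range of the 6 cells. Class II genes were low, with H2-Aa at most 21.7, H2-Ab1 at most 18.1 and Cd74 at most 22.9 TPM, as were the late neutrophil genes S100a8, S100a9, Ngp and Camp, at most 49.5 TPM. Lower values of these genes occurred in most cells (S100a8 in 62 cells at 10 TPM or more) and were not read as expression. Mmp8, a neutrophil collagenase gene, was detected in 3 of the 6 (77.4, 412 and 132 TPM in cells 34, 63 and 89). The T and NK and the erythroid lists had 0 genes detected in them.

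**Figure D4:**
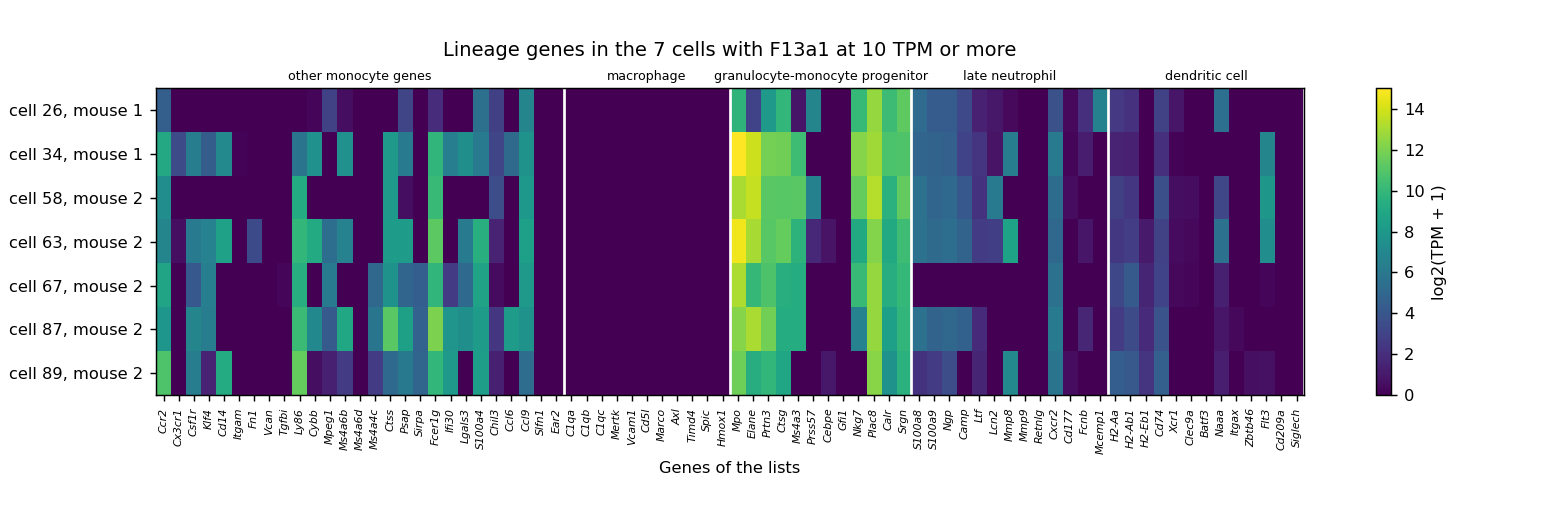
Levels of lineage genes, as log2(TPM + 1) on the color scale, in the 7 cells with F13a1 at 10 TPM or more (rows), grouped by list (columns). The macrophage block is at 0 throughout, and the further monocyte genes are filled in part. The progenitor block is bright in every row for Mpo, Prtn3, Ctsg, Plac8, Calr and Srgn and uneven or dark for its other genes.

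Transcription factors of the branch were measured unevenly in these cells. Irf8, which directs progenitors to the monocyte and dendritic fates, was detected in all 6 (20.4 to 770 TPM) and in 57 of 96 cells. Spi1, encoding PU.1, was detected in 1 of the 6 (14.8 TPM, cell 67) and in 27 of all cells. Zeb2 was detected in 16 cells, 13 of them Mpo-high, and in 3 of the 6. Egr1 was detected in 3 of the 6 and in 37 of all cells. Over 27025 promoters of 200 bases before the start site (RefSeq, GRCm38.p6), the PU.1 core GAGGAA was found on either strand in 18.9% and in 5 of the 9 members. The C/EBP motif TTGCNNAA was found on either strand in 7.47% and in 2 of the 9 members. The promoters shown each hold a match of 1 motif only, and a match is a description of the sequence. The promoters of F13a1 (chr13:37050245-37050444, minus strand) and Cd68 (chr11:69666171-69666370, minus strand) are shown as those of the members most confined to the Mpo-high and the class II-high cells. Capitals mark the PU.1 core in the first and the C/EBP motif in the second.

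F13a1 promoter: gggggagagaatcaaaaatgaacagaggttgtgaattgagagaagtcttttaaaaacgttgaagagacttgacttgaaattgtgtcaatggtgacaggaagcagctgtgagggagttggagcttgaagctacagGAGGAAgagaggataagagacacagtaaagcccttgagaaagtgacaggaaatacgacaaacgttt

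Cd68 promoter: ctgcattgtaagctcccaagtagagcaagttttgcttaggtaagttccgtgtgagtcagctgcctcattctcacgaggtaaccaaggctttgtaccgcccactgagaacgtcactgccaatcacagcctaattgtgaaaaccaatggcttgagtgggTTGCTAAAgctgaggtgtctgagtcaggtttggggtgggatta

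In the second table, of RPKM values, 8 of the 9 members were present, and Fcgr1 was not. Each of these 8 genes had a lowest value there that was shared by many cells and was taken as not detected. All 22 cells with Ly6c2 at 100 TPM and all 6 with F13a1 at 100 TPM were above it. F13a1 was at 232 RPKM in cell 34, 373 in cell 58, 349 in cell 63, 1148 in cell 87, 12.5 in cell 89 and 6.53 in cell 67. It was also above its lowest value in 3 cells under 1 TPM. Other members were seen less often: 16 of the 61 cells with Lyz2 at 100 TPM, 9 of 26 with Lyz1, 9 of 19 with Ms4a6c, 9 of 32 with Cd68, 27 of 48 with Clec12a and 5 of 18 with Igsf6 were above it. The cells high in Ly6c2 and F13a1 were thus found in both tables, and the levels of the other members rest on the TPM table.

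The genes most like 3 of the members were ranked by the lower of the within-mouse Spearman correlations over 48 cells each, among 6991 genes detected in 10 or more cells, with the 9 members left out. For Ly6c2 they were Elane, neutrophil elastase (0.80 in mouse 1 and 0.70 in mouse 2), Ly6c1 (0.59 and 0.82), Hp, haptoglobin (0.55 and 0.70), Ms4a3 (0.54 and 0.58), C3, Slpi, Fcnb and Sgms2. Elane reached 100 TPM in 23 cells, 18 of which were among the 22 with Ly6c2 at 100 TPM (78.3% and 81.8%). For Lyz2 the values were lower: Sephs1 (0.41 and 0.40), Ly6c1 (0.38 and 0.44), Chil3 (0.39 and 0.38), C3, Cybb, Arrdc1, Ceacam1 and Wls. For F13a1, detected in 7 cells only, Zfp81 (0.46 and 0.54), Nsmce2 (0.45 and 0.45), Zeb2 (0.42 and 0.52), Tfec (0.38 and 0.63), Cenpj, Tmem108, Cd79b and Ms4a6b were ranked first, from too few cells to read an order.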

How the data were processed

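Single-cell RNA-seq libraries of 96 spleen cells, 48 from each of 2 mice, were read from a pair of deposited tables. The authors deposited TPM values for 23955 gene symbols, with RSEM named in that table, and every cell summed to 1000000 (1e+06). The authors deposited RPKM values for 9310 Ensembl identifiers, named for AltAnalyze, in which each member present had a lowest value shared by many cells. The tools Bowtie2, TopHat2 and RSEM and the builds mm9 and mm10 are named, per the submitters' processing notes; versions, and which build belonged to which table, are not given in the sources used here. RSEM divides reads that fit several genes by a model, which bears on Lyz1 and Lyz2 and on Ly6c2 and Ly6c1. TPM keeps no read depth. Each column was assigned to its cell by name, and 0 columns were left without a sample.

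Computed here, with Python 3.11.15, numpy 2.4.6, pandas 2.3.3, scipy 1.17.1 and matplotlib 3.10.9, were levels by mouse and state, differences of mean log2(TPM + 1), shares of cells with exact 95% intervals, limits for counts of 0 from 3 counts, and Spearman correlations. Differences on the log2(TPM + 1) scale understate changes of low genes. The functions were checked on simulated data. The members, gene lists and thresholds were chosen with earlier results of these data known. Genes were named from the 9 members, the 4 most abundant genes of each list, the genes defining a state and the 8 genes most like Ly6c2, Lyz2 and F13a1, leaving out members and Gm and Rik names; other genes were chosen after their values were seen. Alternatives were other detection and state thresholds, pseudocounts of 0.1 and 10, the RPKM table, TPM rescaled without the 10 most abundant genes of each cell, subsets of cells and other profile rules. Promoter sequences are from RefSeq and coding sequences and positions from GENCODE. Some genes of the lists are counted but not reported singly here.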

Additional observations from a re-analysis of the deposited data

Results flagged for a closer look

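A rule on the gap to the nearest value was applied to 6 groups, each 1 member with a median of 10 TPM or more in a small state of mouse 2. In 2 of the 6, both in the 8 neutrophil gene-high cells, a cell was far from the others. Lyz2 in the 6 cells of the rest was among the other groups. By chance that rule picks about 1 in 20 groups of independent values, and since these cells share an animal and a set of genes, the count is a description only. Ly6c2 in cell 73 was 55.5 TPM, the lowest of the 8, while the other 7 lay between 2588 and 4423 TPM. The same cell had the lowest Lyz2 (6107 TPM), Igsf6 (3.24 TPM) and Clec12a (3.10 TPM) of the 8 and the highest S100a8 of all cells (201252 TPM). Clec12a in cell 92 was 1880 TPM, the highest of the 8, while the other 7 lay between 3.10 and 573 TPM. Cell 92 also had the highest Mpo of the 8 (776 TPM), the highest Ly6c2 (4423 TPM), the only Cd68 value above 10 TPM (24.05 TPM) and the most genes (3897).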

How the results depend on the processing

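Over the settings tried on the main counts, 44 values stayed within 1.5 times the main count and 9 did not. With 5 members higher by 1 or more in mouse 2 as the main count, the RPKM table gave 1. Leaving out the 34 cells with H2-Aa at 1000 TPM or more (class II-high cells and cell 68) gave 8. For the alternative counts of members past a difference of 1, the share of all genes was not recomputed, so they have no background. The count of 1 cell with a coherent profile became 0 at 100 TPM and 0 with 9 of 9 members required. All these rules required Fcgr1, so the count could not exceed 1, and the settings that left it at 1 are no check of it. The count of 7 cells with at least 7 members became 12 at 1 TPM, 3 at 100 TPM and, in an alternative chosen after seeing the data, 6 without the cell with the most genes. The 5 members lower in class II-high than in Mpo-high cells of mouse 1 became 3 with states set at 300 TPM, and the 11.6% of genes lower in mouse 2 became 17.6% among genes whose mean reached 10 TPM. The 5 members detected in at least 10 cells of each mouse became 3 at 100 TPM. Of 80 differences of single members between the mice over the alternatives, 76 were above 0 and 4 below, and the 4 were of the lysozymes. The alternatives reuse the same cells, so these counts are not independent. Fcgr1 was at 0 in all 48 cells of mouse 1, so its differences could not fall below 0. The difference of Lyz1 turned from 1.18 to -0.87 in Mpo-high cells alone, chosen after seeing the data; the cause was not tested. No paired analysis was possible because the cell numbers are not shared between the mice. Depth is unknown, so a value of 0 TPM is not absence, and 1 animal per side leaves no replicate check.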
